A study of Mus musculus with 8 samples.

Results

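The Reg genes encode small secreted proteins of the pancreas and gut, and their transcripts were followed here in the pancreas of lean and obese mice. The 7 genes named by the family list were Reg1, Reg2, Reg3a, Reg3b, Reg3d, Reg3g and Reg4. Of these, 6 were found by symbol among the 15047 genes of the deposited values. Reg4 had no row there, so only its position and sequence were used here. The members were set by family name, although earlier results of these data were known when they were chosen. Their values are given for every mouse.

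RNA was sequenced from pancreas tissue of 8 male mice. LFD mice (n = 3) and HFD mice (n = 3) were wild-type C57BL/6 animals put on a low-fat or a high-fat diet at 4 weeks of age and kept on it for 10 weeks, where fat made up 60% of the calories of the HFD. The ob/ob mice (n = 2) were C57BL/6J animals that lack leptin in all cells because of a germline mutation, and they ate standard chow, to which they were assigned at 4 weeks of age in the same design of 10 weeks of feeding, so they differ from LFD mice in genotype and in diet. The sample labels name the tissue only as pancreas, whereas the paper describes these animals as carrying a graft of tumor organoids (mT), in lean and obese hosts alike. Values are rlog values, that is, log2 read counts corrected for library size and shrunk between mice where reads are few. A difference of 1 is therefore a 2-fold difference or, for genes with few reads, somewhat more. Sequencing depth is unknown, and the errors given are those of the spread between mice.

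Reg proteins carry a C-type lectin-like fold and are released by acinar cells, the enzyme-secreting cells of the exocrine pancreas. Reg1, also known as lithostathine or pancreatic stone protein, and its close relative Reg2 are made in healthy acinar tissue. Reg3b and Reg3a were first known as pancreatitis-associated proteins because inflammation and acinar injury raise them, and Reg3b and Reg3g are also antimicrobial products of the intestinal epithelium. Reg3d is related to the islet neogenesis-associated protein of the hamster. Cytokines that signal through STAT3, such as IL-6 and IL-22, are known inducers of Reg3 genes, and Extl3, an exostosin family enzyme, has been proposed as a Reg receptor.

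The 6 measured genes lie within 1 cluster on chromosome 6 of GRCm38 (Gencode M21), each with 6 exons. From low to high coordinates they are Reg3b at chr6:78370657-78373466 on the plus strand, Reg3d at chr6:78375874-78378865 on the minus strand, Reg3a at chr6:78380709-78383827 on the plus strand, Reg2 at chr6:78395623-78408106 and Reg1 at chr6:78422711-78428667 on the plus strand, and Reg3g at chr6:78466269-78468872 on the minus strand. Reg4 lies apart, on chromosome 3. They resemble each other in sequence, which matters for read assignment, so the last 60 coding bases of the measured genes are shown, with capitals where a base differs from Reg3b.
Reg3b: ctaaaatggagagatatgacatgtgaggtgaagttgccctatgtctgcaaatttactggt
Reg3g: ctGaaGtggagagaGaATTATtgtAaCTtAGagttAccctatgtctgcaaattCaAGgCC
Reg3a: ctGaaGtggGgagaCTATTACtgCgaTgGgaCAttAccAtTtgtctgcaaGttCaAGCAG
Reg3d: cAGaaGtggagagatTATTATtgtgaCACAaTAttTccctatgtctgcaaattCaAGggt
Reg1: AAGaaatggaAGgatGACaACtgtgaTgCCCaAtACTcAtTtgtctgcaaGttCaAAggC
Reg2: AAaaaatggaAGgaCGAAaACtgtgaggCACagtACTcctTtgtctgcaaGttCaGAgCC
Over these 60 bases Reg3g and Reg3d each differ from Reg3b at 19 positions, Reg2 at 23, and Reg1 and Reg3a each at 25. Over the whole coding sequence, identity was 78.7% between Reg1 and Reg2 and 75.9% between Reg3b and Reg3g. Reg3a shared 73.8% with Reg3b and 72.9% with Reg3g, and Reg3d shared between 65.0% and 65.8% with the other Reg3 genes. The longest stretch identical between any pair was 35 bases, between Reg3b and Reg3g, against a read length of 150 bases. Salmon divides reads between similar transcripts by probability, and the deposited values do not show the uncertainty of that step.

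Promoter sequence is shown for 4 members in 2 pairs. Reg1 and Reg3d had the highest correlations with acinar content. Reg3b and Reg3g are 2 of 3 members whose values relative to acinar products were higher in every obese than in every LFD mouse. The same held for 17.4% of all genes, and the difference did not pass the adjusted threshold. Reg3a was the other such member, and its promoter is not shown. Each stretch holds the 250 bases before the RefSeq start (GRCm38.p6), read 5′ to 3′ along the gene's own strand. They span chr6:78425733-78425982 for Reg1 (plus strand), chr6:78378866-78379115 for Reg3d (minus strand), chr6:78370635-78370884 for Reg3b (plus strand) and chr6:78468875-78469124 for Reg3g (minus strand). Capitals mark TATAAA (the TATA box), CACCTG (an E-box, the type of site bound by acinar factors such as Ptf1a) and TTCNNNGAA (the site form of STAT factors), searched on both strands.
Reg1: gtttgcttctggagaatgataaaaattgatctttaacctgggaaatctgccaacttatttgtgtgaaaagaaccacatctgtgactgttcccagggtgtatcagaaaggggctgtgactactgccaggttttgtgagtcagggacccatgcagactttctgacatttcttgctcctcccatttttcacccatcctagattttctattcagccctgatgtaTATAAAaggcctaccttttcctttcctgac
Reg3d: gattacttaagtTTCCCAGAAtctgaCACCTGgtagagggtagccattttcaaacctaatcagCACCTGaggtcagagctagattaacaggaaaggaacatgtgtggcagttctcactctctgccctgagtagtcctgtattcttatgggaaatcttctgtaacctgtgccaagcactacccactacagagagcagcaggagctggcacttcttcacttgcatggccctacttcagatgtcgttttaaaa
Reg3b: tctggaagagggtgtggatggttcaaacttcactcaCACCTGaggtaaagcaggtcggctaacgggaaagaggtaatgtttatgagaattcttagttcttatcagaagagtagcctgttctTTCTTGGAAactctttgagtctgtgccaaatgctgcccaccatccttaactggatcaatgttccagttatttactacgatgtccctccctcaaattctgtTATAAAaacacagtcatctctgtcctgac
Reg3g: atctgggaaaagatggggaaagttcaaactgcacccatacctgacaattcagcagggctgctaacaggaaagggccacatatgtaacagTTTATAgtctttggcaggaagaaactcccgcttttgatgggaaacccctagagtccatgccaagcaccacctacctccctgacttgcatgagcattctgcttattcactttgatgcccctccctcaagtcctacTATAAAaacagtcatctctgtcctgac
TATAAA stood in the 250 bases of 4 of the 7 genes (Reg1, Reg2, Reg3b and Reg3g), against 12.4% of 32851 promoters of the same length. CACCTG stood in 5 of 7 (all but Reg1 and Reg3g), against 17.2%, and TTCNNNGAA in 2 of 7 (Reg3b and Reg3d), against 7.0%. TTCTTGGAA began 129 bases before the start of Reg3b, and TTCCCAGAA began 238 bases before that of Reg3d. Reg3b and Reg3g shared an unbroken run of 20 bases, the longest of any pair of these promoters. The letters of the STAT site were thus present in 1 gene of each pair shown, and they were absent from Reg3a. Such matches are a description of sequence alone.

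The tissue label was checked against cell type markers. Each of 25 acinar secretory products, among them Prss2, Cela1, Cpa1, Pnlip and Amy2b, was found. Their mean rlog value lay between 18.39 and 18.87 in the 3 LFD mice and was 18.69, 16.56 and 14.63 in HFD mice 1, 2 and 3 and 17.95 and 14.95 in ob/ob mice 1 and 2. HFD mice 2 and 3 and ob/ob mouse 2 therefore stood below every LFD mouse by more than the whole LFD range of 0.49. HFD mouse 3 also stood apart in intestinal transcripts. Fabp1, a fatty acid binding protein of enterocytes, was 13.31 there, 6.82 and 6.42 in ob/ob mice 1 and 2, and between 3.71 and 4.28 elsewhere. Lct, the lactase of the brush border, was 11.09 in HFD mouse 3 and between 2.84 and 4.96 elsewhere. The mean of the 6 intestinal markers found, of 14 listed, was 11.21 in that mouse and 7.09 and 6.95 in ob/ob mice 1 and 2. It was 6.20 and 6.68 in HFD mice 1 and 2 and between 5.92 and 6.18 in LFD mice. Defining markers such as Cdx1, Cdx2 and Muc2 had no row. Reg3b and Reg3g are gut products too, so the Reg differences between groups and the correlations with acinar content are also given without HFD mouse 3. The slopes on acinar content, the other correlations, the nearest genes and the counts over lists include it, and its part in them was not tested.

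Reg1 and Reg2, the constitutive acinar members, were lower on average in both obese models, but the obese mice differed widely among themselves. Reg1 rlog values were 18.20, 18.13 and 18.62 in LFD mice, 18.26, 16.25 and 14.41 in HFD mice, and 17.74 and 14.72 in ob/ob mice. HFD mouse 1 lay among the LFD mice, whereas both ob/ob mice lay below all of them. Reg2 read 16.86, 16.97 and 17.52 on LFD, 16.75, 15.41 and 13.26 on HFD, and 16.98 and 14.01 in ob/ob. Here the 3 HFD mice were all under the LFD mice, HFD mouse 1 only narrowly, while ob/ob mouse 1 was among them.

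**Figure D1:**
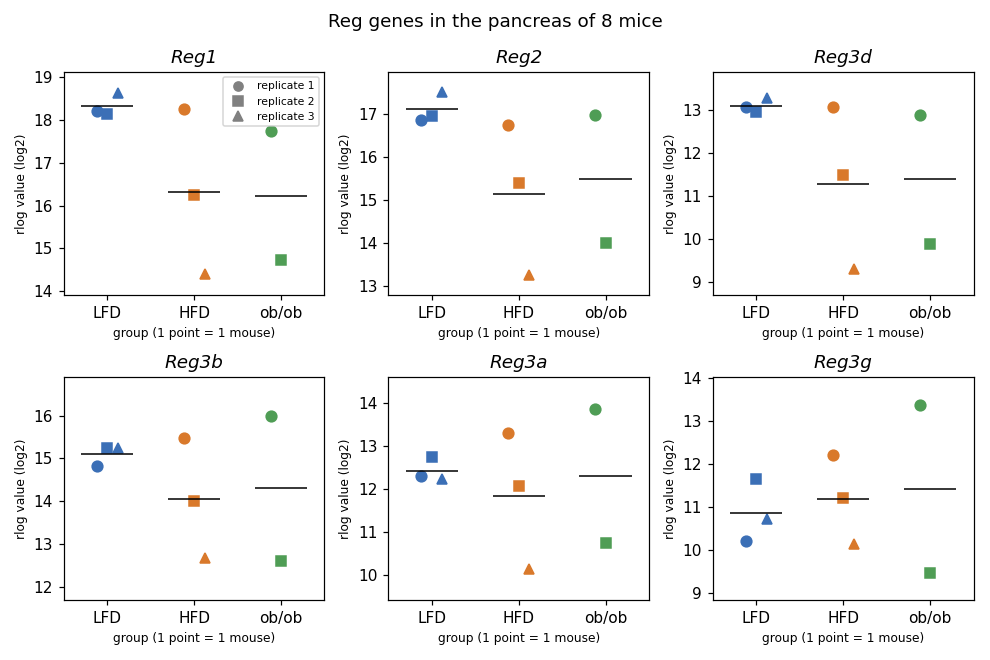
Each panel plots the rlog value (log2 scale) of 1 Reg gene in each of 8 mice by group, with a horizontal line at the group mean. The LFD mice lie close together for Reg1, between 18.13 and 18.62, while HFD mouse 3 is at 14.41 and ob/ob mouse 2 at 14.72.

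Reg3d behaved like Reg1. It was 13.07, 12.97 and 13.28 in LFD mice, 13.08, 11.49 and 9.31 in HFD mice, and 12.88 and 9.89 in ob/ob mice. Both ob/ob mice were below every LFD mouse and HFD mouse 1 was not. With the 8 mice ordered by level, Reg1 and Reg3d gave the same order.

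The pancreatitis-associated members spread in both directions. Reg3b rlog values were 14.82, 15.24 and 15.25 in LFD mice, 15.48, 14.02 and 12.67 in HFD mice, and 15.98 and 12.61 in ob/ob mice. Reg3a values were 12.31, 12.75 and 12.22 in LFD mice, 13.31, 12.06 and 10.14 in HFD mice, and 13.87 and 10.74 in ob/ob mice. For both genes HFD mouse 1 and ob/ob mouse 1 were above every LFD mouse and the other 3 obese mice were below every LFD mouse.

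Reg3g, the bactericidal lectin of the gut, was 10.19, 11.64 and 10.72 in LFD mice, 12.20, 11.21 and 10.14 in HFD mice, and 13.38 and 9.46 in ob/ob mice. HFD mouse 1 and ob/ob mouse 1 again exceeded all LFD mice, HFD mouse 2 lay within the LFD range, and HFD mouse 3 and ob/ob mouse 2 lay below it. The LFD SD of Reg3g was 0.74, against 0.16 to 0.36 for the other 5 members, so the lean baseline is least sure for this gene.

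To ask whether obesity of either kind changed the family, the mean of the HFD and ob/ob groups was compared with LFD in limma over all 15047 genes. No member passed. The difference was -2.05 (SE 1.08) for Reg1, -1.80 (SE 0.93) for Reg2 and -1.77 (SE 0.87) for Reg3d on the log2 scale, or 0.242, 0.288 and 0.294 of the LFD level, with limma adjusted p of 0.26, 0.251 and 0.233. The difference was -0.93 (SE 0.83) for Reg3b, -0.35 (SE 0.81) for Reg3a and 0.45 (SE 0.84) for Reg3g, with limma adjusted p of 0.487, 0.805 and 0.752. Without HFD mouse 3 the differences were -1.57 for Reg1, -1.33 for Reg2, -1.27 for Reg3d, -0.58 for Reg3b, 0.07 for Reg3a and 0.71 for Reg3g, none of which passed. With all 8 mice, the median over the 6 members was -1.35, beside 0.041 over all genes. Even at an unadjusted p under 0.05, none of the 6 members passed, against 14.5% of all genes higher and 10.9% lower in obese mice. With the adjustment, 0% of all genes passed in limma, the smallest adjusted p being 0.0598. Without HFD mouse 1, 3326 genes passed, and without ob/ob mouse 1, 476 did, but no member was among them under either. Nor did any member separate the 5 obese from the 3 LFD mice, which 9.4% of all genes did upward and 9.05% downward. The 95% confidence interval reached from -4.51 to 0.42 for Reg1 and from -1.45 to 2.36 for Reg3g, so changes of several-fold were not detectable with this spread.

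The obesity models were also compared with LFD separately. In HFD against LFD the differences were -2.01 for Reg1, -1.98 for Reg2, -1.81 for Reg3d, -1.05 for Reg3b, -0.59 for Reg3a and 0.34 for Reg3g, with limma adjusted p of 0.309 or more. Without HFD mouse 3 they were -1.06, -1.04, -0.82, -0.35, 0.26 and 0.86 in the same order, so the sign for Reg3a turned. None of the 6 passed an unadjusted p under 0.05, where 11.5% of all genes were higher and 8.35% lower, and 0% passed in limma after adjustment. Only Reg2 had all HFD mice below all LFD mice, as had 12.3% of all genes. In ob/ob against LFD the differences were -2.09 for Reg1, -1.62 for Reg2, -1.72 for Reg3d, -0.81 for Reg3b, -0.12 for Reg3a and 0.57 for Reg3g, with limma adjusted p of 0.386 or more. With each mouse left out in turn, they ran from -3.59 to -0.58 for Reg1, from -3.10 to -0.13 for Reg2 and from -3.21 to -0.22 for Reg3d, the smallest each time without ob/ob mouse 2. Again none of the 6 passed unadjusted, beside 11.6% of all genes higher and 7.18% lower, and 0% passed in limma after adjustment. Reg1 and Reg3d had both ob/ob mice below all LFD mice, as had 21.8% of all genes. Both comparisons use the same 3 LFD mice.

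Genetic and diet-induced obesity were also set against each other. The ob/ob mean minus the HFD mean lay between -0.08 for Reg1 and 0.47 for Reg3a, and the limma adjusted p was 1.00 for all 6. Without HFD mouse 3 it lay between -1.03 for Reg1 and -0.28 for Reg3g, so the other 5 members turned in sign. No member passed without adjustment, beside 2.28% of all genes higher and 1.63% lower in ob/ob mice, and 0% passed in limma with it. The interval for Reg3a ran from -1.83 to 2.77, and a difference of that size between the models was not detectable with 2 and 3 mice.

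Much of the spread among obese mice ran in parallel with acinar content. Over the 8 mice, the Pearson correlation with the mean of the 25 acinar secretory products was 0.999 for Reg1, 0.992 for Reg3d, 0.983 for Reg2, 0.935 for Reg3b, 0.837 for Reg3a and 0.549 for Reg3g. Over the 7 mice without HFD mouse 3 it was 0.998, 0.991, 0.977, 0.900, 0.720 and 0.479. The mice share a library scaling and fall into separate levels of acinar content, so these values are a description. When the acinar mean was added to the group means as a covariate, a mouse with an acinar mean higher by 1 had a Reg1 value higher by 0.97 (SE 0.047), and the slopes of the other members ran from 0.95 for Reg3d to 0.79 (SE 0.16) for Reg3g. The median slope over all genes was -0.018. LFD mice span little acinar range, so the slopes rest on the 5 obese mice. In tissue RNA, fewer acinar cells and less RNA per acinar cell cannot be told apart.

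**Figure D2:**
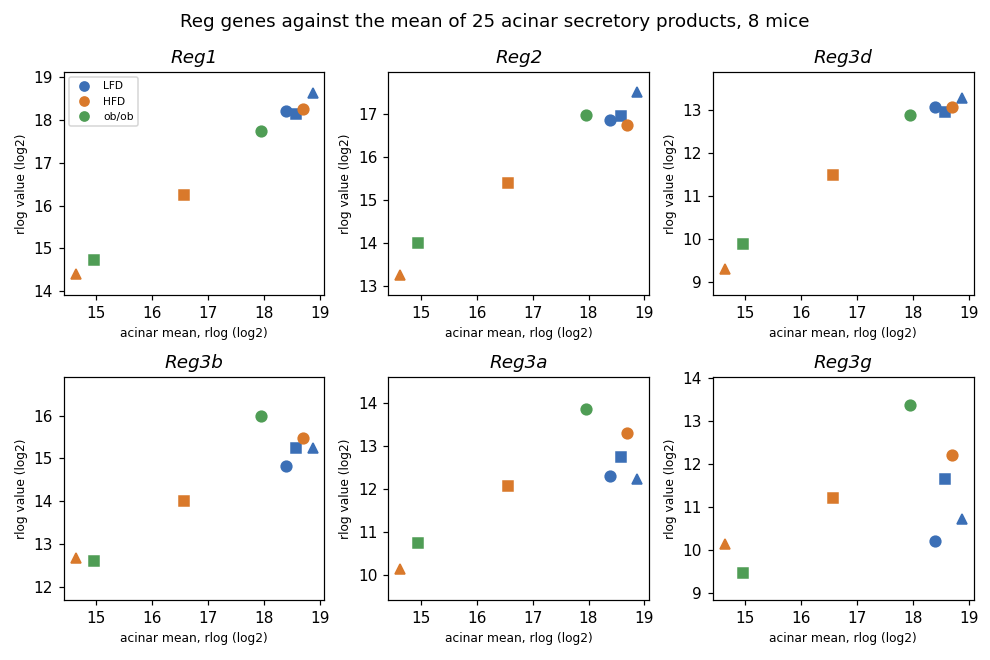
Each panel plots the rlog value of 1 Reg gene (y axis, log2, the same span in every panel) against the mean rlog value of 25 acinar secretory products (x axis, log2), with 1 point for each of 8 mice, coloured by group and shaped by replicate number. Reg1, Reg2 and Reg3d lie near a line, whereas for Reg3a, Reg3b and Reg3g the LFD mice lie below the course of the obese mice.

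Relative to the acinar products, LFD and obese mice overlapped for 3 members and were apart for the other 3. Reg1 minus the acinar mean stayed between -0.45 and -0.19 in all 8 mice, although Reg1 itself ranged over 4.20. For Reg3d the same quantity ranged from -5.61 to -5.05 and for Reg2 from -1.94 to -0.93. These were the members with overlap. Reg3g minus the acinar mean was -8.20, -6.94 and -8.16 in LFD mice, -6.49, -5.35 and -4.49 in HFD mice, and -4.57 and -5.49 in ob/ob mice. The lowest obese value thus exceeded the highest LFD value.

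The other acute-phase members gave the same order of groups. Reg3a relative to the acinar mean was -6.08, -5.83 and -6.66 in LFD mice, -5.38, -4.50 and -4.50 in HFD mice, and -4.08 and -4.21 in ob/ob mice. Reg3b was -3.57, -3.35 and -3.62 in LFD mice, -3.21, -2.54 and -1.96 in HFD mice, and -1.97 and -2.33 in ob/ob mice. For both, every obese mouse exceeded every LFD mouse, by the least in HFD mouse 1. Reg3g minus Reg1 was -8.01, -6.49 and -7.90 in LFD mice and between -6.06 and -4.27 in obese mice. Reg1 had a correlation of 0.999 with the acinar mean, so this difference nearly repeats the values above and is no second test.

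**Figure D3:**
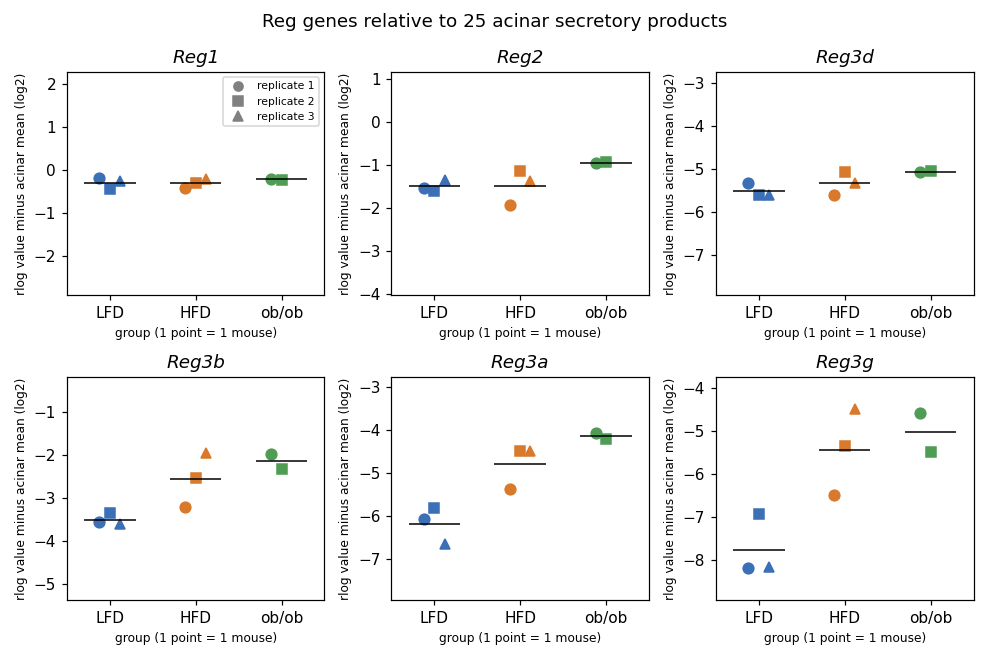
Each panel plots 1 Reg gene's rlog value minus the mean of 25 acinar secretory products in the same mouse (log2, the same span in every panel), by group, with lines at the group means. For Reg3a, Reg3b and Reg3g all 5 obese mice lie above all 3 LFD mice, and for Reg1, Reg2 and Reg3d the groups overlap.

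Such separation is common on this relative scale. With the acinar mean subtracted, 17.4% of all genes had every obese mouse above every LFD mouse, against 3 of the 6 members. Of the 25 acinar products themselves, 5 were separated upward and 2 downward. The mean difference relative to the acinar products was 2.53 for Reg3g, 1.72 for Reg3a and 1.15 for Reg3b, beside 2.12 for the median of all genes, with a limma adjusted p of 0.214 for each of the 3. Without HFD mouse 3 the differences were 2.29, 1.65 and 1.00, with a limma adjusted p of 0.318 for each. The share of all genes separated upward was then also 17.4%.

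The covariate fit estimates the slope of each gene, taken as linear and the same in every group, and compares groups at equal acinar content. LFD acinar means lay between 18.39 and 18.87, while those of obese mice reached down to 14.63. The comparison therefore extends the slope beyond the LFD range and is not one of matched mice. The obese mean then differed from the LFD mean by 2.09 (95% confidence interval 0.91 to 3.27) for Reg3g, 1.44 (0.84 to 2.03) for Reg3a and 0.83 (0.25 to 1.40) for Reg3b, or 4.26-fold, 2.70-fold and 1.77-fold. For Reg3d it was 0.20 (-0.17 to 0.57), for Reg2 0.09 (-0.36 to 0.54) and for Reg1 -0.04 (-0.39 to 0.32). At an unadjusted p under 0.05, Reg3a, Reg3b and Reg3g were higher and no member was lower, beside 6.67% of all genes higher and 4.3% lower. After adjustment over all genes none of the 3 passed, with limma adjusted p of 0.153 for Reg3a, 0.24 for Reg3g and 0.334 for Reg3b. Without HFD mouse 3 the differences were 2.32 for Reg3g, 1.44 for Reg3a and 0.96 for Reg3b. Without ob/ob mouse 1, which had the highest value of each, they were 0.91, 1.02 and 0.20, so the size for Reg3b and Reg3g rests largely on that animal. Without HFD mouse 1 they were 3.004, 1.88 and 1.30.

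**Figure D4:**
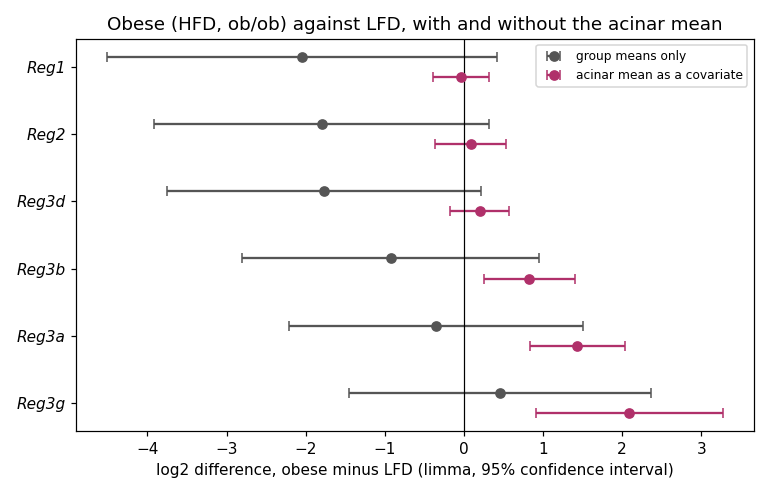
Points give the log2 difference between obese (mean of HFD and ob/ob) and LFD mice for each measured Reg gene, with 95% confidence intervals from limma, from group means only (grey) and with the acinar mean as a covariate (magenta). The intervals shrink with the covariate, and those of Reg3b, Reg3a and Reg3g then lie above 0.

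Within each model, the covariate fit placed the same 3 members above LFD. In HFD against LFD the differences were 1.90 for Reg3g, 1.12 for Reg3a and 0.63 for Reg3b, and in ob/ob against LFD they were 2.28, 1.75 and 1.02, with limma adjusted p of 0.131 or more. These 3 passed an unadjusted p under 0.05 in both comparisons and no other member did, where 5.91% of all genes were higher and 4.58% lower on HFD, and 6.28% higher and 3.51% lower in ob/ob. Without HFD mouse 3 the differences were 1.87, 1.12 and 0.61 in HFD against LFD and 2.78, 1.76 and 1.30 in ob/ob against LFD. Between ob/ob and HFD, Reg3a differed by 0.62 (95% confidence interval 0.04 to 1.20) and Reg2 by 0.52 (0.08 to 0.96), with limma adjusted p of 0.601 and 0.552. They were the 2 members with an unadjusted p under 0.05, which 4.31% of all genes had in the higher and 3.62% in the lower direction, and neither passed after adjustment. Without HFD mouse 3 they differed by 0.64 and 0.45.

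Members also differed in how closely they moved with each other. Reg1, Reg2 and Reg3d had correlations of 0.987 to 0.994 with one another over the 8 mice. Reg3b stood between, with 0.955 to Reg3a, 0.951 to Reg3d, 0.948 to Reg2, 0.935 to Reg1 and 0.794 to Reg3g. Reg3g had 0.869 with Reg3a and 0.539 with Reg1. Position did not mirror this order, since Reg3d sits between Reg3b and Reg3a on the chromosome and Reg3g lies at the far end. Among 11827 other genes whose rlog values averaged 5 or more, those most like Reg1 were Pnliprp2 (0.999), Cel (0.998) and Klk1 (0.998), which encode 2 lipases and a kallikrein of acinar secretion. For Reg3d they were Bmpr1b (0.998), Rbpjl (0.997), a subunit of the acinar PTF1 complex, and Pnliprp1 (0.997), and for Reg2 Gls2 (0.994), Tceal8 (0.993) and Slc25a35 (0.992). Reg3b was closest to Dtx1 (0.990), Fxyd6 (0.983) and Alb (0.981), and Reg3a to Alb (0.956), Mageh1 (0.947) and Lyplal1 (0.944). Reg3g had no gene at 0.95 or more, the nearest being Zfp747 (0.924), Hdgfl3 (0.909) and Golga7 (0.887). At 0.95 or more stood 640 genes for Reg1 and 443 for Reg3d, against 38 for Reg3b and 1 for Reg3a.

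The cytokines known to induce Reg3 genes were low but measurable in part. Of 13 ligands of the IL-6, IL-22 and IL-17 families, 8 were found, and Il22, Il17a, Il17f, Il19 and Il20 had no row. In obese against LFD, 4 of the 8 were higher and 1 lower at an unadjusted p under 0.05, beside 14.5% of all genes higher and 10.9% lower. The median was 0.60, and none passed after adjustment. Il6 was 2.45, 2.91 and 2.99 in LFD mice, 2.91, 4.17 and 3.93 in HFD mice, and 4.59 and 3.94 in ob/ob mice, a difference of 1.18 (limma adjusted p 0.118). HFD mouse 1 lay within the LFD range and the other 4 obese mice above it, and the correlation of Il6 with Reg3g over the 8 mice was 0.239. The related ligands Clcf1 and Osm differed by 1.41 and 1.09, and Ctf1 (cardiotrophin) by -0.72. Clcf1 and Osm were each higher in all 5 obese mice than in any LFD mouse, as were 9.4% of all genes.

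Further down the pathway, receptors and kinases upstream of STAT3 gave no common direction. Of 13 found of 14, 2 were higher and 2 lower without adjustment, near the shares of all genes (14.5% higher, 10.9% lower), and the median was -0.10. Osmr, the oncostatin M receptor, differed by 1.00 and Jak2, the kinase bound to these receptors, by 0.59, while Lifr differed by -1.43 and Il22ra1, the IL-22 receptor subunit of epithelial cells, by -1.36. Il22ra1 was between 8.65 and 8.99 in LFD mice, 8.83, 7.25 and 7.91 in HFD mice, and 8.12 and 5.94 in ob/ob mice, so HFD mouse 1 overlapped with LFD. Stat3 itself differed by -0.12 (limma adjusted p 0.804).

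Among STAT3 feedback and response genes, 5 of the 14 found (of 15) were higher and 1 lower without adjustment. Of all genes, 14.5% were higher and 10.9% lower. The median of the list was 0.73, and none was past the adjusted threshold. Saa3, a serum amyloid A of inflamed tissue, was between 6.01 and 6.43 in LFD mice and between 8.16 and 9.33 in obese mice, a difference of 2.34 (limma adjusted p 0.0598). Junb, Pim1 and Bcl2l1 differed by 1.14, 0.87 and 0.86, and Socs3, the feedback inhibitor of STAT3 signalling, by 0.83 (limma adjusted p 0.165). The mean of this list had a correlation over the 8 mice of 0.128 with Reg3g and -0.699 with Reg1. With the acinar mean subtracted from the Reg genes, these were 0.916 and 0.123. Subtraction builds the acinar mean into each value, and the high correlation of Reg3g was not particular to this list. It was 0.933 with neutrophil and macrophage markers, 0.861 with fibroblast markers, 0.806 with the ligands above and 0.662 with intestinal markers. With islet markers it was 0.263, and with the receptors and kinases -0.600. For Reg1 the subtracted value spanned only -0.45 to -0.19. A link with STAT3 was not tested.

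Other acinar injury and stress genes did not share 1 course either. Of 16 found, 4 were higher and 2 lower without adjustment, beside 14.5% of all genes higher and 10.9% lower, and the median was 0.22. Tff2, a trefoil peptide, differed by -2.21, close to Reg1, while S100a6 and Anxa2, both calcium-binding proteins, each differed by 1.58 and Spp1, osteopontin, by 1.21. In the exostosin list, 1 of 5 genes was higher and 2 lower without adjustment, beside the same shares of all genes. Extl3 was 11.45, 11.33 and 11.57 in LFD mice, 11.45, 10.41 and 9.95 in HFD mice, and 11.09 and 9.91 in ob/ob mice, a difference of -0.90 (limma adjusted p 0.178). Extl1 differed by -1.32 and Ext1 by 0.74.

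Cell type markers moved beside the Reg genes, and their part in the Reg values was not tested. The counts of each list without adjustment stand beside 14.5% of all genes higher and 10.9% lower in obese against LFD. All 25 acinar products had negative differences between -2.49 and -1.58 in obese against LFD, with a median of -2.04, of which 4 (Pla2g1b, Ctrc, Gp2 and Amy2b) passed without adjustment. Acinar transcription factors had a median of -1.61, and 3 of 6, namely Bhlha15 at -2.08, Nr5a2 at -1.59 and Gata4 at -1.29, passed without adjustment. Neutrophil and macrophage markers were higher in 11 of 12 cases at an unadjusted p under 0.05 and in all 12 by sign, S100a8 by 1.99 and Adgre1 by 1.57, and their mean lay between 7.05 and 7.64 in LFD mice and between 8.16 and 9.09 in obese mice. Fibroblast markers passed upward without adjustment in 8 of 10 cases, with 9 of 10 higher by sign, Col1a1 by 2.17 and Postn by 1.92. Ductal markers gave 3 higher and 1 lower of 12 without adjustment, with Anxa3 at 1.32, Tspan8 at 1.21, Krt7 at 1.12 and Muc1 at -1.26, and islet markers gave 1 higher of 12, Chgb at 1.12. All 6 intestinal markers had positive differences, from 0.72 to 2.90, of which Cdh17 at 1.41 passed without adjustment. No gene of any of these lists passed the limma adjusted threshold.

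**Figure D5:**
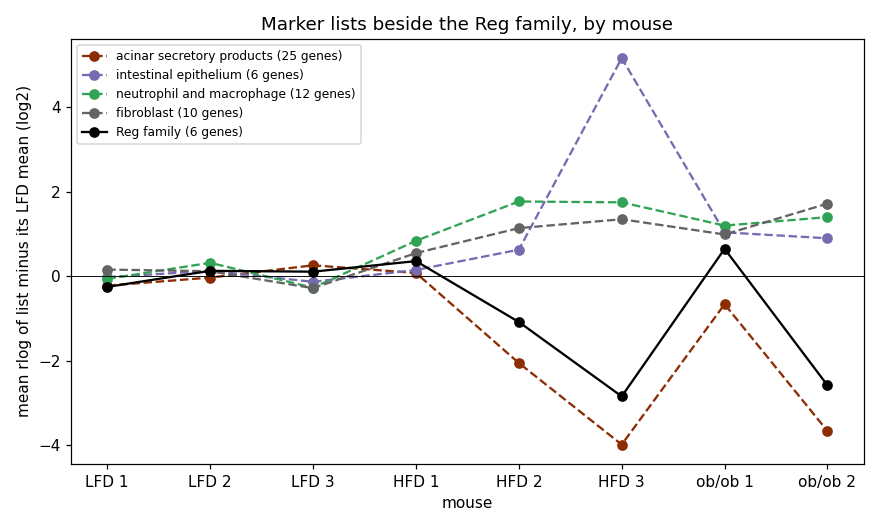
Lines give, for each of 8 mice, the mean rlog value of the genes of a list minus the mean of that list in the LFD mice (log2), for the Reg family (solid) and 4 marker lists (dashed). The Reg family mean follows the acinar products down in HFD mice 2 and 3 and ob/ob mouse 2 but less far, and the intestinal markers peak in HFD mouse 3.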

How the data were processed

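RNA was sequenced from the pancreas of 8 male mice (3 LFD, 3 HFD and 2 ob/ob), grouped by the sample labels. Replicates are different animals. The authors quantified Gencode M18 transcripts (GRCm38.p6) with Salmon 0.11.3, summarized them per gene with tximport and applied the rlog function of DESeq2 1.22.2 (versions also in the submitters' processing notes), and the deposited values are on a log2 scale. The filter that left 15047 genes, and whether rlog used the groups, are not given in the sources used here. rlog shrinks differences of genes with few reads, and it carries no gene length, so levels were not compared between genes. Counts were not used here, so depth is unknown and no count model was run.

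Groups were compared with limma 3.58.1 (R 4.3.3) in 1 fit of all 8 mice with a term per group, an intensity trend and Benjamini-Hochberg adjustment over all 15047 genes at 0.05. Confidence intervals are at 95%. Fits with the mean of 25 acinar products as a covariate, and tests of values minus that mean, were also made, the second, and the covariate fits without single mice, chosen after seeing the data. Other alternatives were no trend, only the groups compared, a minimum mean rlog value of 5, median centring, quantile normalization, the replicate number as a block, and leaving out each mouse. On simulated data for obese against LFD with 15047 genes, limma recovered 4% of 50 genes changed by 2 residual SDs, 52% at 4, 98% at 8 and 100% at 16.

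Members and gene lists were chosen with earlier results of these data known. Named genes were all members, the 3 non-members with the highest Pearson correlation to each (among genes averaging 5 or more), up to 4 genes of each list by size of difference among those with an unadjusted p under 0.05 in obese against LFD (otherwise the largest), and Extl3, Stat3, Socs3, Il6 and Il22. Fabp1, Lct and the list examples given without values were named outside this rule. Correlations are descriptions over 8 mice. Coordinates and coding bases came from Gencode M21 (GRCm38) and promoters from RefSeq (GRCm38.p6). All 7 genes matched in both, and alignments used Biopython 1.88 in Python 3.11.15. Proteins were not analysed here.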

Additional observations from a re-analysis of the deposited data

How the results depend on the processing

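No Reg gene passed an adjusted p of 0.05 in the 4 group comparisons under any alternative. Except for values relative to the acinar mean, the directions below are of differences that never passed. The lowest limma adjusted p over these alternatives was 0.0581 for Reg3d in obese against LFD and 0.0596 for Reg3d in HFD against LFD, and the highest over all members and comparisons was 1.00. The number of genes past the threshold was 1 in HFD against LFD and 38 in ob/ob against LFD when only the groups compared entered, and 1 in ob/ob against LFD, in obese against LFD and in ob/ob against HFD with the acinar covariate. Leaving out each mouse gave 0 to 2812 genes in HFD against LFD, 0 to 89 in ob/ob against LFD, 0 to 3326 in obese against LFD and 0 to 1 in ob/ob against HFD, the 3 highest of the first 3 all without HFD mouse 1, whose acinar mean is that of LFD mice. The cause was not tested.

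With the acinar covariate the sign turned in HFD against LFD for Reg3a (1.12), Reg3b (0.63) and Reg3d (0.0695), in ob/ob against LFD for Reg1 (0.0076), Reg2 (0.35), Reg3a (1.75), Reg3b (1.02) and Reg3d (0.33), in obese against LFD for Reg2 (0.0869), Reg3a (1.44), Reg3b (0.83) and Reg3d (0.20), and in ob/ob against HFD for Reg1 (0.09). The replicate numbers did not pair the mice, since the correlation of deviations between same-numbered mice ran from -0.2814 to 0.5918. With the replicate block no call changed, and the sign turned in ob/ob against HFD for Reg2 (-0.0094), Reg3a (-0.0066), Reg3b (-0.0664), Reg3d (-0.3554) and Reg3g (-0.0555).

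Leaving out each mouse, the differences ran in HFD against LFD from -1.33 to 0.26 for Reg3a and -0.17 to 0.86 for Reg3g, in ob/ob against LFD from -1.68 to 1.45 for Reg3a, -2.49 to 0.88 for Reg3b and -1.39 to 2.53 for Reg3g, and in obese against LFD from -1.14 to 0.43 for Reg3a and -0.53 to 1.44 for Reg3g. In ob/ob against HFD they ran from -1.59 to 1.43 for Reg1, -1.13 to 1.84 for Reg2, -1.09 to 2.03 for Reg3a, -1.44 to 1.93 for Reg3b, -1.40 to 1.59 for Reg3d and -1.72 to 2.20 for Reg3g. Relative to the acinar mean, obese against LFD ran from -0.0458 to 0.0861 for Reg1, 1.49 to 1.90 for Reg3a, 1.00 to 1.31 for Reg3b and 2.29 to 2.95 for Reg3g. Without HFD mouse 1 these last 3 passed, at 1.87, 1.31 and 2.79 with limma adjusted p of 0.0367, 0.0286 and 0.0157. The share of all genes that passed in that fit was not counted, so the passing is not a result about these members. With all 8 mice the median of all genes on this scale was 2.12, and it was not computed without HFD mouse 1. At equal acinar mean the range was -0.12 to 0.0283 for Reg1, -0.10 to 0.48 for Reg2, 1.02 to 1.88 for Reg3a, 0.20 to 1.30 for Reg3b, 0.09 to 0.45 for Reg3d and 0.91 to 3.004 for Reg3g.

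All other differences of Reg genes kept their sign, but not always their size. With quantile normalization, obese against LFD was -0.74 for Reg1, -0.79 for Reg2 and -0.38 for Reg3b, beside -2.05, -1.80 and -0.93 in the main fit. For Reg3d, Reg3a and Reg3g it was -1.60, -0.27 and 0.54, beside -1.77, -0.35 and 0.45. The median of all genes differed by less than 0.1 in each of the 4 comparisons. Unknown depth, 2 or 3 mice a group and the wide acinar range limit the detection of changes.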
